A study of Homo sapiens with 179 samples.

Results

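The genes described here are 9 transcription factors of the neuroectoderm, the embryonic layer that forms the brain and spinal cord. They were chosen by name, as the rows of the deposited expression tables with the symbols ZIC2, ZIC5, POU3F1, OTX2, SOX1, SOX3, SOX11, SOX21 and PAX6, and they make up 9 of the 19084 genes in those tables. All 9 were found. They were measured in bulk RNA of the established embryonic stem cell line H1, which is human, so fewer cells that express a factor and less RNA of it per cell cannot be told apart.

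Many factors of early neural tissue are already transcribed in human pluripotent cells, where SOX2 and POU5F1 hold the undifferentiated state and SOX2 has close relatives in SOX1 and SOX3. When pluripotent cells take the neural path, POU3F1, OTX2 and the ZIC factors act early, and in human cells PAX6 and SOX1 are the usual marks of committed neuroectoderm. SOX11 and SOX21 act later, in neural progenitors and in young neurons.

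The study sequenced 179 libraries of undifferentiated H1 cells, all cultured in E8, a defined medium, on Matrigel-coated plates, with no other treatment and no change of genotype named in the labels. H1p43 and H1p16 are 3 libraries each, made with the Illumina TruSeq kit and run with 12 samples per lane. The sources used here do not state what the p in these names means. All other libraries were made by LM-Seq, a strand-specific protocol with oligo-dT selection and random-hexamer priming. Lane 1 held 95 of them, Lane 2 held 48, Lane 3 held 24 and Lane 4 held 6, each being also the number of samples that shared the lane. Each LM-Seq library carries a number that recurs in several lanes. It is not stated that equal numbers mark 1 library sequenced again, nor that replicates stem from separate cultures. The p-values below therefore measure no more than the spread between libraries, which may be technical. The smallest and largest totals of expected counts were 1040671 and 1539277 for Lane 1, 2005736 and 2739084 for Lane 2, 4028607 and 4918577 for Lane 3, and 15780078 and 16583048 for Lane 4. They were 29018106 and 35852646 for H1p43 and 23680503 and 30628645 for H1p16. POU5F1, the defining factor of the pluripotent state, was at 3061 TPM or more in every H1p43 library, 3108 TPM or more in every H1p16 library and 1889 TPM or more in every LM-Seq library, where TPM is a level scaled to the length of the transcript and the size of the library. Of 6 fibroblast genes, LUM and DCN were listed at 0 in all 6 groups, while COL1A1 ran from 42.85 to 95.2 TPM, COL1A2 from 28.2 to 77.5 TPM and PDGFRB from 1.27 to 12.8 TPM, and COL3A1 reached at most 1.40 TPM.

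Promoters are shown for the 3 factors above 1 TPM with the highest log2 fold change between the TruSeq groups, and for SOX21, the one with the lowest, as a look at the sequences of genes that moved in opposite directions. Each window holds 250 bases before and 50 after the annotated start, 5′ to 3′ on the gene's own strand, taken from RefSeq on GRCh38.p14. Capitals mark the CCAAT box, a common promoter element, as CCAAT or as its reverse complement ATTGG. This motif was found on either strand in 34.6% of the 35116 promoter windows of this length.
POU3F1, chr1:38046744-38047043, minus strand: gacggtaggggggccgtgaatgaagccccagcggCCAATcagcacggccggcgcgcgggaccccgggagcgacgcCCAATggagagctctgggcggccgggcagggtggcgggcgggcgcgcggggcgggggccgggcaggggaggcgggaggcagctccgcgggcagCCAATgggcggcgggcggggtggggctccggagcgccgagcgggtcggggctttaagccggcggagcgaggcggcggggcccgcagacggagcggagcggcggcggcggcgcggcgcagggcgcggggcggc
SOX3, chrX:140505020-140505319, minus strand: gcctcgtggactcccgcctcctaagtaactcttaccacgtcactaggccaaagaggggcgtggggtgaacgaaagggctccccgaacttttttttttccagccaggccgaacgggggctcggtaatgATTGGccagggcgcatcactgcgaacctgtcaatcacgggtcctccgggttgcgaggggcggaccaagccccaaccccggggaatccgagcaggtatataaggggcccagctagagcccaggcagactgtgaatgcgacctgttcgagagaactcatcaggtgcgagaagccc
ZIC2, chr13:99981534-99981833, plus strand: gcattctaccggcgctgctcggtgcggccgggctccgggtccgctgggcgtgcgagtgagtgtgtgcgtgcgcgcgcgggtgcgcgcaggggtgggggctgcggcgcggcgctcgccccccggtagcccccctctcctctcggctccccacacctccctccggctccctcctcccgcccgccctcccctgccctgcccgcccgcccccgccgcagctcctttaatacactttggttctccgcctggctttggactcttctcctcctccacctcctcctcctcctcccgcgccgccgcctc
SOX21, chr13:94712496-94712795, minus strand: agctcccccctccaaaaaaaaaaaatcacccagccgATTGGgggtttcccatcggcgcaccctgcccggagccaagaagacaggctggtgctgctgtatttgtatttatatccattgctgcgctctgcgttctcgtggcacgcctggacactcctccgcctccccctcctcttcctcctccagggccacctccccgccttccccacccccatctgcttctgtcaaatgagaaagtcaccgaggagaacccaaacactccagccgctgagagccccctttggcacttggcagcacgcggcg
The POU3F1 window held 3 CCAAT boxes, all on the gene's strand, and those of SOX3 and SOX21 held 1 each on the opposite strand. The ZIC2 window held none. GC content was 82.3% in the POU3F1 window, 75% in that of ZIC2, 60.3% in that of SOX3 and 60% in that of SOX21. The octamer ATGCAAAT, the classical binding motif of POU factors, was in none of these 4 windows and in 1.77% of all windows. A match or its absence describes only the letters of the window. ZIC2 and ZIC5 are neighbours on chromosome 13, with 9874 bases between their gene models on GRCh38.p14. The expression values come from the build hg19, and no coordinates of that build are used.

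ZIC2, a zinc-finger factor of forebrain development, was the most abundant of the 9 factors in every group. Its TPM was 169.6, 170.4 and 172.3 in the H1p43 libraries and 104.6, 110.4 and 115.7 in the H1p16 libraries. In LM-Seq its lowest, median and highest TPM were 95.2, 141.7 and 199 in Lane 1, 89.03, 142.1 and 183 in Lane 2, 89.7, 130.95 and 155.4 in Lane 3, and 132.4, 147.5 and 162.9 in Lane 4. The LM-Seq medians thus lay between the TruSeq groups, and ZIC2 exceeded every other factor in all 179 libraries.
ZIC5, its neighbour and a relative with the same kind of zinc fingers, had 44.2, 45.1 and 45.99 TPM in H1p43 and 33.8, 35.4 and 36.2 TPM in H1p16, and medians of 41.4, 40.9, 39.3 and 40.3 TPM in Lanes 1 to 4. The ratio of ZIC2 to ZIC5 TPM had a median of 3.76 in H1p43 and 3.09 in H1p16, and the ranges of these groups did not overlap. In Lanes 1 to 4 the median ratio was 3.49, 3.43, 3.26 and 3.52. Together the ZIC genes made up a median of 61.3% of the summed TPM of all 9 factors in H1p43 and 61.2% in H1p16, and 60.5% to 61.8% in the 4 lanes.

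**Figure D1:**
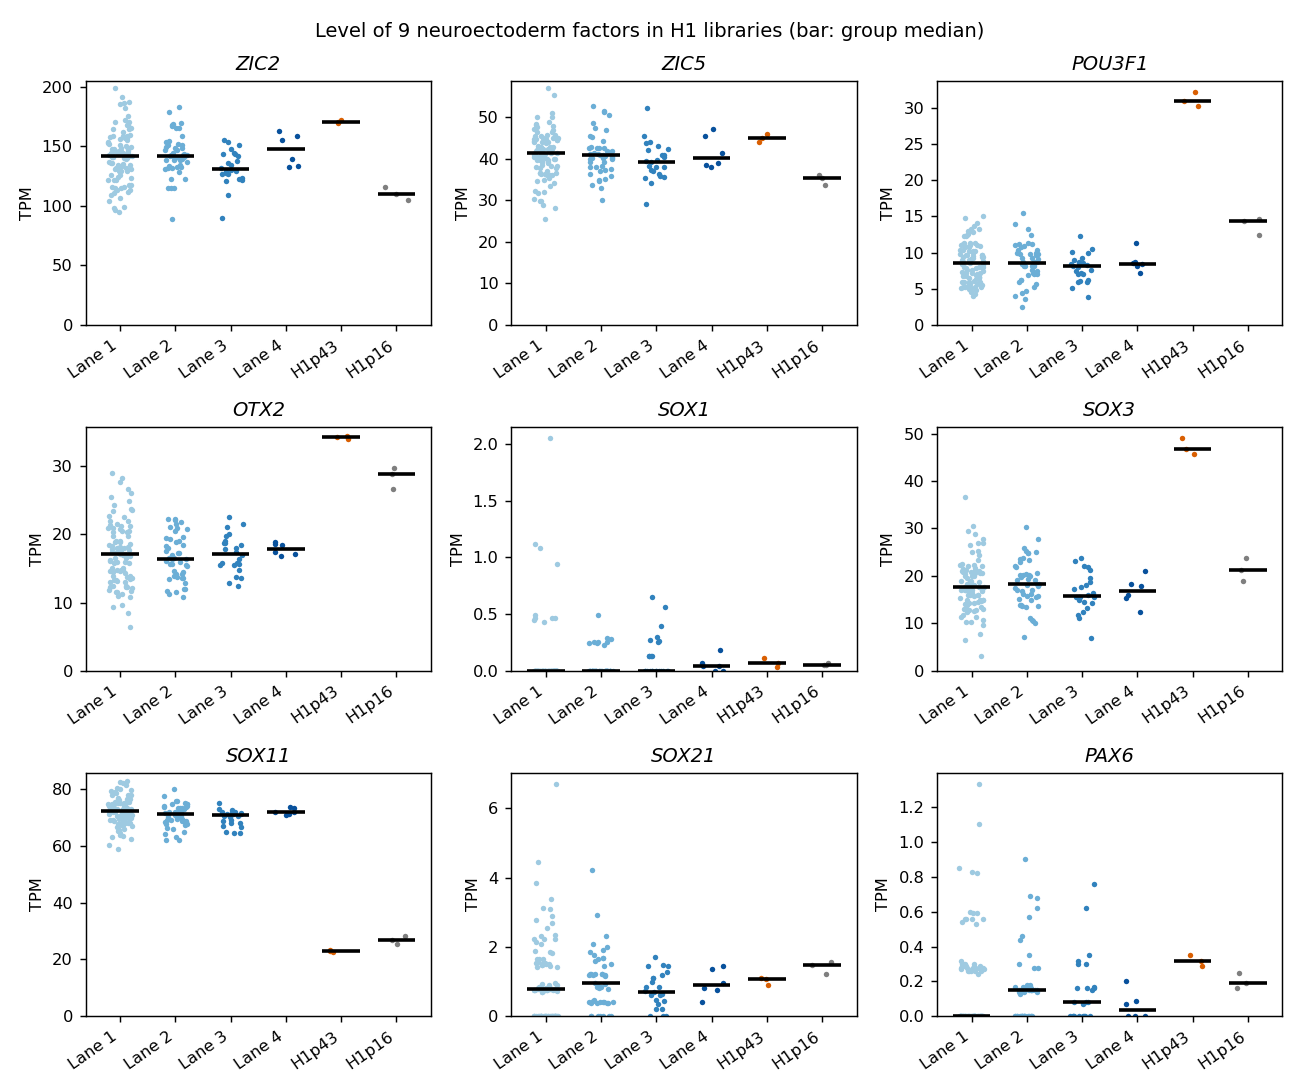
TPM of each of the 9 factors in every library, 1 point per library, by group (Lanes 1 to 4 by LM-Seq, H1p43 and H1p16 by TruSeq), with a bar at the group median. SOX11 lies at 58.9 to 82.6 TPM in the LM-Seq libraries and at 22.5 to 28.3 TPM in the TruSeq libraries, while SOX1 and PAX6 reach at most 2.05 and 1.33 TPM.

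The order below ZIC2 differed between groups. In H1p43 it ran SOX3, ZIC5, OTX2, POU3F1, SOX11, SOX21, PAX6 and SOX1, and the ranges of neighbours overlapped only for SOX3 and ZIC5, with SOX3 above ZIC5 in 3 of 3 libraries. In H1p16 it ran ZIC5, OTX2, SOX11, SOX3, POU3F1, SOX21, PAX6 and SOX1, with overlap only between OTX2 and SOX11. In the LM-Seq lanes SOX11 came next after ZIC2 and then ZIC5, both in every library. SOX3 and OTX2 then overlapped in every lane, with SOX3 the higher in 45 of 95, 29 of 48, 9 of 24 and 3 of 6 libraries of Lanes 1 to 4. POU3F1 followed them, and SOX21, PAX6 and SOX1 were lowest.

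The comparison of H1p43 with H1p16 asks how the factors differed within 1 protocol. POU3F1 and SOX3 rose about 2-fold in H1p43, ZIC2 and ZIC5 rose less, OTX2 rose by little, and SOX11 and SOX21 fell. Of the 8 factors that passed the filter on low counts, 6 were called higher and 2 lower at an adjusted p below 0.05. Over all 14574 genes tested, 36.4% were called higher and 35.4% lower, so a call in itself is common here. The median log2 fold change was 0.39 over the 8 factors and 0.01 over all genes. The log2 fold changes below are on scaled counts and can differ from the ratio of the TPM printed beside them. Over the alternative settings, which include fits on TPM, they ran from 0.48 to 0.63 for ZIC2 and from 0.22 to 0.36 for ZIC5. For OTX2 they ran from 0.11 to 0.27 and for SOX11 from -0.37 to -0.21.
POU3F1, a POU factor of the epiblast and the early neural plate, had 30.3, 30.97 and 32.3 TPM in H1p43 and 12.4, 14.4 and 14.7 TPM in H1p16. The groups lay far apart without overlap. This was a 2.09-fold difference, or 1.06 ± 0.05 (SE) on the log2 scale, with an adjusted p of 6.81e-12 by edgeR's quasi-likelihood test with Benjamini-Hochberg adjustment.
SOX3, a close relative of SOX2 that helps to keep neural progenitors undifferentiated, had 45.6, 46.7 and 49.1 TPM in H1p43 and 18.9, 21.3 and 23.7 TPM in H1p16. Every H1p43 library was above every H1p16 library. Its log2 fold change was 1.04 ± 0.06 (SE), or 2.06-fold, with an adjusted p of 2.32e-11 in the same edgeR test.
For ZIC2, whose libraries are given above and did not overlap, the log2 fold change was 0.52 ± 0.03 (SE), 1.44-fold, with an adjusted p of 2.82e-11 by edgeR. For ZIC5 it was 0.25 ± 0.03, 1.19-fold, with an adjusted p of 1.94e-06 by edgeR, again without overlap between the groups.
OTX2, a homeodomain factor of the forebrain and midbrain, had 33.99, 34.3 and 34.4 TPM in H1p43 and 26.7, 28.9 and 29.7 TPM in H1p16. The groups did not overlap, and the log2 fold change on counts was 0.15 ± 0.05 (SE), with an adjusted p of 0.00570 by edgeR.
SOX11, a factor of young neurons, had 22.5, 22.98 and 23.3 TPM in H1p43 and 25.4, 26.7 and 28.3 TPM in H1p16. All H1p43 libraries were lower, and the log2 fold change was -0.33 ± 0.03 (SE), with an adjusted p of 9.54e-08 by edgeR. SOX21, which counteracts SOX1 to SOX3 in neural progenitors, had 0.90, 1.09 and 1.11 TPM in H1p43 and 1.22, 1.47 and 1.56 TPM in H1p16. The groups did not overlap. SOX21 had a log2 fold change of -0.56 ± 0.18 (SE), with an adjusted p of 0.0107 by edgeR, and without H1p43 replicate 3 the adjusted p was 0.0577.
PAX6, a paired-box factor of the eye and forebrain, had 0.29, 0.32 and 0.35 TPM in H1p43 and 0.16, 0.19 and 0.25 TPM in H1p16. These rest on 32 to 38 expected counts per H1p43 library and 16 to 20 per H1p16 library. The log2 fold change was 0.58 ± 0.24 (SE), with an adjusted p of 0.0389 by edgeR, a call that only 4 of 12 alternative settings kept. SOX1, the classical early neural plate factor, had 0.03, 0.07 and 0.11 TPM in H1p43 and 0.05, 0.05 and 0.07 TPM in H1p16, on 2.02 to 8.11 and 3.03 to 3.05 expected counts. The groups overlapped, and SOX1 was below the filter and was not tested.

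**Figure D2:**
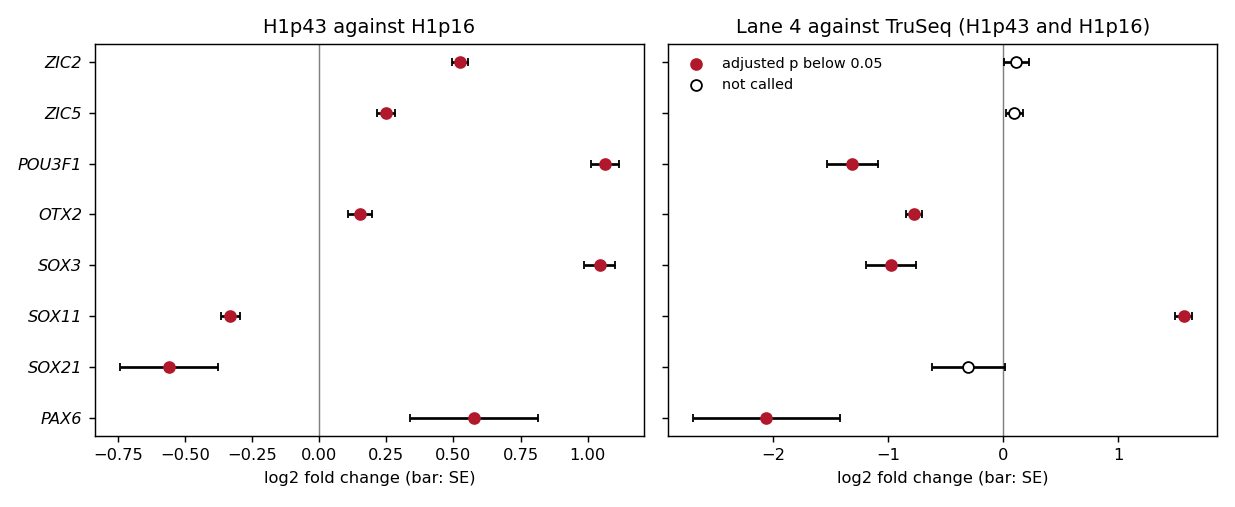
Log2 fold change (x axis) with its standard error for the 8 factors tested, H1p43 against H1p16 on the left and LM-Seq Lane 4 against the 6 TruSeq libraries on the right, filled where the adjusted p was below 0.05. POU3F1 and SOX3 are highest on the left at 1.06 and 1.04, and SOX11 alone is called higher on the right, at 1.57.

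Other genes of the same pathway did not move as 1 group. Of 17 further genes of the ZIC, OTX, POU3, SOX and PAX families, 6 were tested, with 2 called higher and 1 lower. SOX2 fell to 256 ± 2.31 TPM in H1p43, against 289 ± 10.3 TPM in H1p16 (SD, n = 3 each). OTX1, a relative of OTX2, rose by 1.19 ± 0.20 on the log2 scale and SOX4, a relative of SOX11, by 0.13 ± 0.03. The relatives SOX2 and SOX3 therefore had opposite signs between the groups.
Of 20 other neural factors, 7 were tested, with 3 called in each direction and a median log2 fold change of -0.30. HES3, a repressor of the HES family, was at 15.9 ± 1.28 TPM in H1p43 and 73.5 ± 6.29 TPM in H1p16, a log2 fold change of -2.32 ± 0.08. HESX1, a homeodomain factor of the anterior neural plate and pituitary, fell by 1.48 ± 0.12 on the log2 scale, and FEZF1 by 0.56 ± 0.16. IRX3 rose by 0.98 ± 0.23. The summed TPM of the 20 genes ran from 31.2 to 33.1 in H1p43 and from 92.7 to 103.6 in H1p16, of which HES3 and HESX1 made up the larger part.
Among 12 structural genes of neural cells, 4 were called higher and 4 lower. MAP2, a microtubule protein of dendrites, had a log2 fold change of 1.45 ± 0.07, and NCAM1, an adhesion molecule, of 0.70 ± 0.07. NES, an intermediate filament of progenitors, and TUBB3, a tubulin of neurons, were at -0.37 ± 0.02 and -0.42 ± 0.03. Their summed TPM was 371 to 375 in H1p43 and 417 to 446 in H1p16.
Markers of other states moved as well. Of 11 pluripotency genes 10 were called lower and none higher, with a median log2 fold change of -0.51. PRDM14, a zinc-finger factor of pluripotent and germ cells, was at -1.40 ± 0.03 on the log2 scale, L1TD1, an RNA-binding protein, at -1.08 ± 0.02, DNMT3B, a DNA methyltransferase, at -1.03 ± 0.02, and LIN28A, an RNA-binding protein that blocks let-7 maturation, at -0.51 ± 0.02. POU5F1, at -0.16 ± 0.02, and NANOG, at -0.24 ± 0.03, had the smallest called falls. The summed TPM of the 11 genes was 7174 to 7207 in H1p43 and 8881 to 9091 in H1p16. Of 8 neural crest genes 5 were tested, with 4 higher (SOX9, SOX10, MSX2 and SNAI2) and FOXD3 lower; the summed TPM was 29.4 to 31.1 in H1p43 and 39.7 to 46.1 in H1p16, and TFAP2B was listed at 0 in both groups. Of 6 fibroblast genes 3 were tested, with COL1A2 and PDGFRB called higher. COL1A1 was called lower on counts, at -0.08 ± 0.04 on the log2 scale (adjusted p = 0.0472 by edgeR). Its mean TPM was not lower, at 45.7 in H1p43 and 44.9 in H1p16. The sum of the 6 genes was 107.2 to 112.1 TPM in H1p43 and 78.7 to 85.2 TPM in H1p16. KDR, a growth factor receptor, was the only tested one of 10 mesendoderm genes and was lower. No epidermal gene of 3 was tested. Their part in the differences of the neuroectoderm factors was not tested.

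The comparison of LM-Seq Lane 4 with the 6 TruSeq libraries sets the protocols against each other at the nearest depth. Protocol and the number of samples per lane differ together and cannot be told apart, and whether cultures or sequencing runs differ too is not stated. SOX11 was about 3 times as abundant in Lane 4, POU3F1, SOX3 and OTX2 were lower there, and the ZIC genes lay close to TruSeq. Of the 8 factors tested, 1 was called higher and 4 lower, against 34.3% called higher and 36.9% called lower of all 13827 genes tested. The median log2 fold change was -0.54 over the 8 factors and -0.06 over all genes.
SOX11 had a lowest, median and highest TPM of 70.9, 71.8 and 73.5 in Lane 4 and of 22.5, 24.3 and 28.3 in TruSeq. The groups were widely separated. For SOX11 the log2 fold change was 1.57 ± 0.08 (SE), 2.96-fold, with an adjusted p of 4.27e-11 by edgeR. SOX11 was also called higher in all 24 alternative settings, at log2 fold changes from 1.40 to 1.75.
POU3F1 had 7.19, 8.47 and 11.4 TPM in Lane 4 and 12.4, 22.5 and 32.3 TPM in TruSeq, again without overlap. Its log2 fold change was -1.31 ± 0.22 (SE), with an adjusted p of 6.68e-05 by edgeR. Against the H1p43 libraries alone it was -1.74 and against the H1p16 libraries alone -0.69, both called.
SOX3 had 12.3, 16.9 and 20.97 TPM in Lane 4 and 18.9, 34.7 and 49.1 TPM in TruSeq. The groups overlapped through the H1p16 libraries. The log2 fold change was -0.97 ± 0.22 (SE), with an adjusted p of 0.000870 by edgeR, and it was -1.39 against H1p43 alone and -0.37 against H1p16 alone.
OTX2 had 16.9, 17.9 and 18.9 TPM in Lane 4 and 26.7, 31.9 and 34.4 TPM in TruSeq, without overlap. The log2 fold change was -0.78 ± 0.07 (SE), with an adjusted p of 6.88e-08 by edgeR, and it stayed within -0.94 to -0.71 over 24 alternative settings. PAX6 had 0, 0.035 and 0.20 TPM in Lane 4 and 0.16, 0.27 and 0.35 TPM in TruSeq, on 9, 4, 3, 0, 0 and 0 expected counts in the Lane 4 libraries. The ranges overlapped, and the log2 fold change was -2.06 ± 0.64 (SE), with an adjusted p of 0.00883 by edgeR. PAX6 had a value in only 12 alternative settings, against 24 for SOX11, and was called in all 12. Its size moved widely, to -2.96 without the library of 9 counts and to -0.25 on log2(TPM + 1). Mean PAX6 was 0.06 TPM in the 6 libraries of Lane 4 and 0.185, 0.177 and 0.157 TPM in Lanes 1 to 3. It was 0.20 TPM in H1p16 and 0.32 TPM in H1p43. Lanes 1 to 3 also hold other library numbers. Over the 6 numbers shared with Lane 1, PAX6 was seen in 3 Lane 4 and 1 Lane 1 libraries. The 2 fits of Lane 4 against Lane 1 that gave it a value had log2 fold changes of 0.02 and 0.30, neither called.
The ZIC genes and SOX21 were not called against the pooled TruSeq libraries. ZIC2 had 132.4, 147.5 and 162.9 TPM in Lane 4 and 104.6, 142.7 and 172.3 TPM in TruSeq, a log2 fold change of 0.11 ± 0.11 (SE) with an adjusted p of 0.357 by edgeR. The Lane 4 range lay inside the TruSeq range, between its groups. Against H1p16 alone the log2 fold change was 0.38, with an adjusted p of 1.47e-05 by edgeR, and against H1p43 alone it was -0.12, with an adjusted p of 0.0736. ZIC5 had 38.2, 40.3 and 47.1 TPM in Lane 4 and 33.8, 40.2 and 45.99 TPM in TruSeq, a log2 fold change of 0.10 ± 0.07 (adjusted p = 0.255 by edgeR). It was 0.21 against H1p16 alone, with an adjusted p of 0.0107 by edgeR. SOX21 had 0.40, 0.90 and 1.45 TPM in Lane 4 and 0.90, 1.17 and 1.56 TPM in TruSeq, and its log2 fold change of -0.30 ± 0.32 had an adjusted p of 0.403 by edgeR. SOX1 was below the filter.
In the other lists, SOX4 was called higher and SOX2 lower among 6 relatives tested, and 1 of 6 other neural factors was called higher (HESX1) and 1 lower (IRX3). Of 11 pluripotency genes, 8 were higher, led by TDGF1 at 1.03 ± 0.04, LIN28A at 1.11 ± 0.10, L1TD1 at 2.09 ± 0.21 and DPPA4 at 0.93 ± 0.09 on the log2 scale, and 2, POU5F1 and SOX2, were lower. Of 12 neural structural genes, 3 were higher, led by CDH2 at 1.26 ± 0.06 on the log2 scale and NES at 0.84 ± 0.09, and 2 were lower. Of the 5 neural crest genes tested 3 were lower, of the 3 fibroblast genes 2 were higher and 1 lower, and KDR was higher.

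The log2 fold change of Lane 4 over TruSeq varied with the GC content of the transcript. Of the genes tested, 97.7% were matched to a transcript sequence by accession and were divided into 10 equal bins of GC content. The median log2 fold change ran from 0.52 in the bin of lowest GC to -0.94 in the bin of highest GC. POU3F1, at 69.9% GC, and SOX3, at 63.3%, fall in the highest bin, and they differed from its median by -0.37 and -0.03. ZIC2, at 58.8% GC, lay 0.67 above the median of its bin, and SOX21, at 55.3%, lay at the median of its bin. SOX11, at 47.7% GC, lay 1.45 above its bin, while OTX2, at 42.8%, and PAX6, at 40.3%, differed from theirs by -1.13 and -2.53. In H1p43 against H1p16 the bin medians covered only -0.05 to 0.18, and POU3F1 and SOX3 lay 0.89 and 0.87 above theirs. What part of the differences between the protocols GC content accounts for was not tested.

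**Figure D3:**
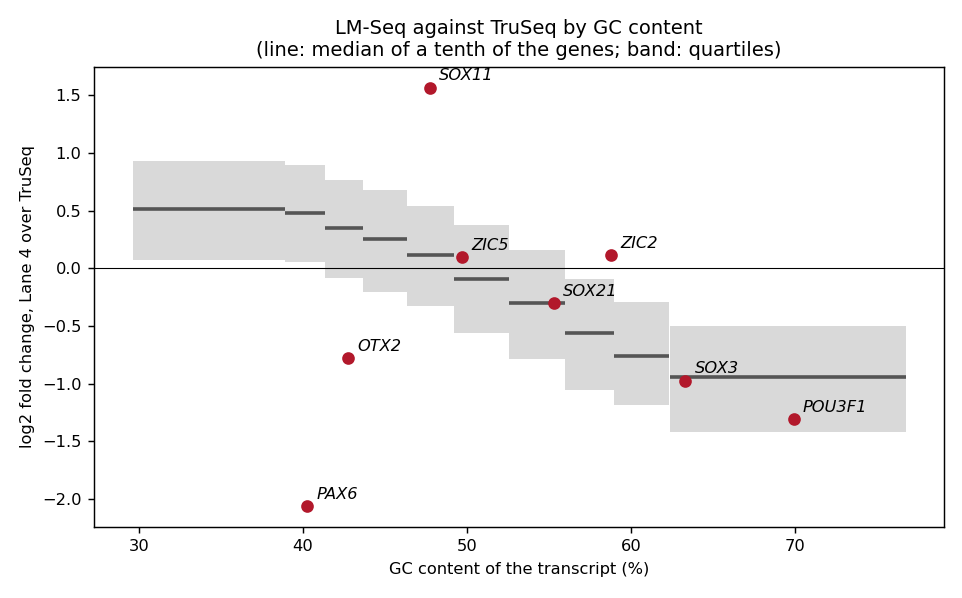
Log2 fold change of Lane 4 over TruSeq (y axis) against transcript GC content in percent (x axis), with the median (line) and quartiles (band) of each of 10 bins of genes and the 8 tested factors as points. The bin medians descend from 0.52 to -0.94, SOX3 sits on its bin's median, and SOX11, OTX2 and PAX6 lie farthest from theirs.

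The LM-Seq lanes hold the same library numbers at different depths, so each deeper lane was set against Lane 1 over the numbers they share. No difference in the mean level of a factor was detected. Over the shared numbers, 6 of the 9 factors were tested in each comparison and none was called. Of all genes, 0% were called in Lane 2 against Lane 1, 0% in Lane 3 against Lane 1 and 0.0161% in Lane 4 against Lane 1. The factors' log2 fold changes lay between -0.12 and 0.02 for Lane 2, between -0.18 and -0.005 for Lane 3, and between -0.12 and 0.07 for Lane 4. At an unadjusted p below 0.05, 1 factor passed in 1 comparison by edgeR, OTX2 in Lane 3, with 17.2 ± 2.75 TPM in Lane 3 and 19.4 ± 4.98 TPM in Lane 1 (SD, n = 24 each) and an unadjusted p of 0.0464. DESeq2 and the fit with library number as a block called none either.

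Detection of the 3 lowest factors differed between lanes. ZIC2, ZIC5, POU3F1, OTX2, SOX3 and SOX11 had at least 1 expected count in all 179 libraries, and all 9 factors had one in each of the 6 TruSeq libraries. SOX21 was seen in 63 of 95 Lane 1 libraries, or 66.3% (95% exact Clopper-Pearson interval 55.9% to 75.7%), 41 of 48 in Lane 2, 21 of 24 in Lane 3 and 6 of 6 in Lane 4. PAX6 was seen in 41 of 95, or 43.2% (33.03% to 53.7%), 30 of 48, 15 of 24 and 3 of 6. SOX1 was seen in 10 of 95, or 10.5% (5.16% to 18.5%), 9 of 48, 11 of 24 and 4 of 6. SOX21 and SOX1 were thus seen in a larger share of libraries in each deeper lane, while PAX6 had the same share in Lanes 2 and 3.
A count of 0 allows up to 3 counts, which is 2.88 CPM (counts scaled by the library total) in the smallest Lane 1 library and 0.190 CPM in the smallest Lane 4 library; intervals and limits cover counting error only. Within the same library numbers, PAX6 was seen in Lane 2 but not in Lane 1 for 16 of 48 numbers and in Lane 1 but not in Lane 2 for 5. For SOX1 in Lane 3 the split was 9 numbers gained and 1 lost of 24, and for SOX21 it was 5 gained and 1 lost. The median number of factors seen per library was 7 in Lane 1 and 8 in Lanes 2, 3 and 4, and all 9 were seen in 5 of 95, 6 of 48, 5 of 24 and 1 of 6 libraries.
When every LM-Seq library was thinned to the smallest total, SOX21 was seen in 58 of 95, 31 of 48, 13 of 24 and 3 of 6 libraries of Lanes 1 to 4. PAX6 was seen in 35, 15, 5 and 1 of them, and SOX1 in 9, 4, 3 and 1. At equal depth no deeper lane thus had a larger share than Lane 1 except SOX21 in Lane 2 and SOX1 in Lanes 3 and 4, where few libraries carried a count.

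**Figure D4:**
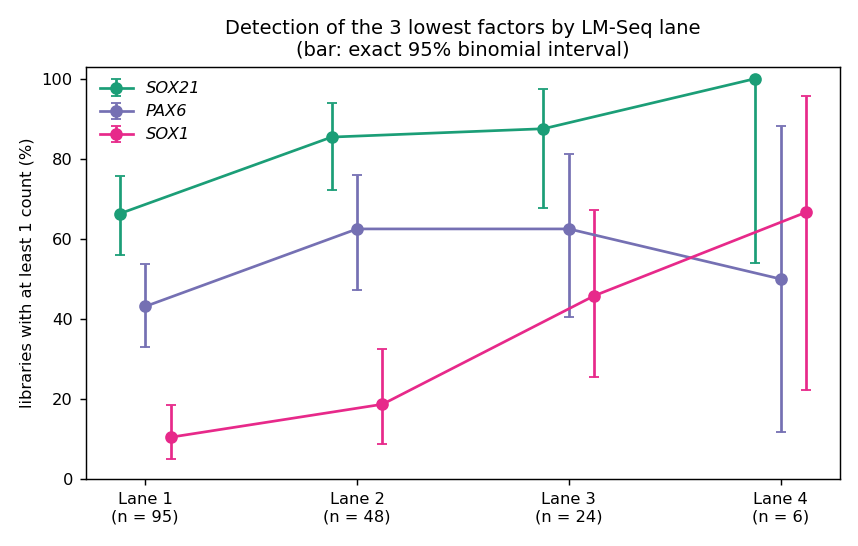
Share of libraries in percent (y axis) with at least 1 expected count of SOX21, PAX6 or SOX1 in LM-Seq Lanes 1 to 4 (x axis), with exact 95% binomial intervals. SOX21 climbs from 66.3% to 100% and SOX1 from 10.5% to 66.7%, while PAX6 stays between 43.2% and 62.5%.

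The factors differed in how much they varied between libraries of a lane. ZIC2 and SOX3 varied more than most genes of like level, and SOX11 less. On counts scaled to a common total, the variance-to-mean ratio is 1 for counting noise alone. For ZIC2 it was 5.27, 6.46, 8.89 and 25.2 in Lanes 1 to 4, against medians of 1.93, 2.71, 3.59 and 7.95 over genes of like level. These medians rose with depth too. The SD of ZIC2 as a share of its mean fell, from 15.6% to 12.6%, 11.1% and 9.39%. The ratio of SOX11 was 1.502, 1.81, 1.81 and 1.14, against 2.24, 3.12, 4.37 and 9.33 over genes of like level. Of the genes of like level, 97.97%, 95.2%, 92.7% and 95.2% lay below ZIC2 in Lanes 1 to 4, and 7.72%, 7.37%, 2.82% and 0.631% below SOX11. SOX3 had ratios of 1.77, 2.71, 3.81 and 7.44, above 91.3%, 97.3%, 94.9% and 76.2% of genes of its level. OTX2 was below most of them, with 1.29, 1.30, 1.70 and 0.56.

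The 6 abundant factors differed in how far their variation recurred with the library number. Over all shared numbers, Pearson's r was highest for ZIC2 and SOX3, but in Lane 3 the place of SOX3 depended on the measure. On log2 CPM, ZIC2 in Lane 2 correlated with ZIC2 in Lane 1 over the 48 shared numbers at Pearson r = 0.80 and Spearman rho = 0.73, with a permutation p of 1e-05, the smallest that 100000 resamples can give, and an adjusted p of 4e-05 over the 12 correlations of this kind. In Lane 3, over 24 numbers, r was 0.81 and rho 0.79, with a permutation p of 1e-05 for r. Leaving out the 2 numbers farthest from the Lane 1 median gave 0.73 in both lanes. All 24 Lane 3 numbers are among the 48 of Lane 2, and both correlations use Lane 1, so they are not independent.
SOX3 gave r = 0.65 and rho = 0.59 in Lane 2, with a permutation p of 1e-05, and r = 0.76 and rho = 0.60 in Lane 3, with a permutation p of 0.00017. Without the 2 farthest numbers these were 0.51 and 0.47. The median r over all genes with a mean of at least 10 counts was 0.41 in Lane 2 and 0.47 in Lane 3, and 96.1% and 95.2% of them lay below ZIC2. ZIC5, POU3F1 and SOX11 had r = 0.36, 0.34 and 0.41 in Lane 2 and 0.71, 0.62 and 0.34 in Lane 3. By rho, ZIC5 was above SOX3 in Lane 3, at 0.74. Without the 2 numbers farthest in each factor, r in Lane 3 was 0.85 for ZIC5, 0.498 for POU3F1 and 0.16 for SOX11. For ZIC5, POU3F1 and SOX11 over all shared numbers, the test results follow. Their adjusted permutation p-values were 0.018, 0.0216 and 0.00681 in Lane 2 and 0.000408, 0.00244 and 0.125 in Lane 3. OTX2 recurred least, at 0.04 in Lane 2 and 0.23 in Lane 3, with permutation p-values of 0.783 and 0.289.

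**Figure D5:**
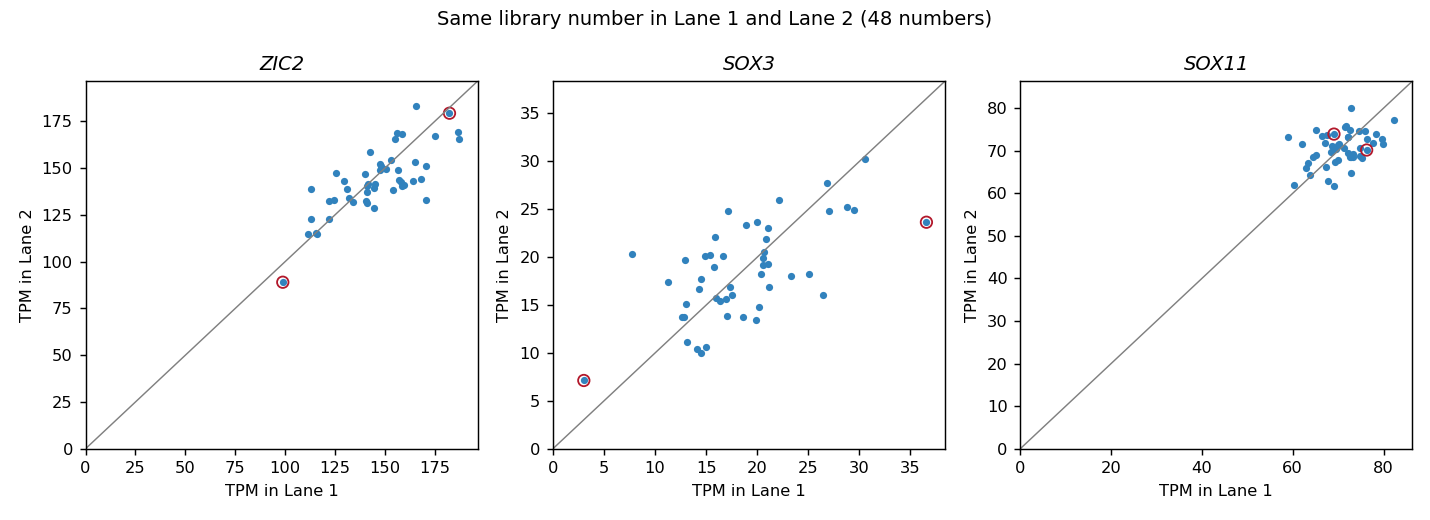
TPM of ZIC2, SOX3 and SOX11 in Lane 2 (y axis) against Lane 1 (x axis) for the 48 library numbers in both lanes, 1 point per number, with the line of equality and rings around the pair of numbers that stand apart over all genes. The points of ZIC2 follow the line (r = 0.80 on log2 CPM), while those of SOX11 form a cloud (r = 0.41).

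A pair of library numbers stood apart over all genes, and some of the factors are extreme in them. They are called here the SOX21-high and the SOX3-low number, after the factor that is extreme in each lane that holds them. They were found by their spread over all genes. Their libraries had the largest spread of deviations from the Lane 1 median, an SD of 0.39 and 0.38 on the log2 scale against a median of 0.25 over 95 libraries and 0.32 for the next library. The SOX3-low number had 3.03, 7.13 and 6.77 TPM of SOX3 in Lanes 1 to 3, the lowest of each lane, and 98.9, 89.03 and 89.7 TPM of ZIC2, the lowest of Lanes 2 and 3. Its POU3F1 was at 4.28, 3.95 and 3.81 TPM, also near the bottom of each lane, but its SOX11 was ordinary at 69.1, 73.9 and 70.1 TPM. The lowest expected counts of SOX3 were 3, 14 and 25 in Lanes 1 to 3.
The SOX21-high number had 6.69 TPM of SOX21 in Lane 1 and 4.23 TPM in Lane 2, the highest of each lane. These rest on few counts, as no library had more than 8 expected counts of SOX21 in Lane 1 or 10 in Lane 2. Its SOX3 was the highest of Lane 1 at 36.6 TPM, but at 23.65 TPM in Lane 2 it was below 8 of the 48 libraries. Its ZIC2 was at 182 TPM in Lane 1 and 179.4 TPM in Lane 2, with 5 and 1 libraries higher. Its POU3F1, at 8.59 and 8.70 TPM, lay at the lane medians of 8.59 and 8.61 TPM. Lane 3 holds only the SOX3-low number. Without the numbers of this pair, 46 numbers were left in Lane 2 and 23 in Lane 3. Over these, ZIC2 correlated with Lane 1 at r = 0.73 in Lane 2 and 0.75 in Lane 3, and SOX3 at 0.51 and 0.55. The Lane 2 values of both equal those given above without the 2 farthest numbers, so they are no further check. For POU3F1 in Lane 2, r fell to 0.29 with a permutation p of 0.0537.

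Across the libraries of Lane 2, ZIC2, SOX3 and POU3F1 varied together in each pairing by Pearson's r, but no pair did by Spearman's rho. How often pairs of other genes do so was not tested. All 15 pairs of the 6 abundant factors were correlated over the 48 Lane 2 libraries and over the 47 Lane 1 libraries whose numbers are not in Lane 2, which makes 30 relations. ZIC2 and SOX3 had r = 0.50 and rho = 0.34 in Lane 2, with a permutation p of 0.00027 for r and an adjusted p of 0.0081 over the 30 relations, and r was 0.31 without the 2 libraries farthest in ZIC2. In the other 47 libraries r was 0.35 and rho 0.36, with a permutation p of 0.016 and an adjusted p of 0.096. ZIC2 and POU3F1 had r = 0.43 in Lane 2 (permutation p = 0.00314, adjusted p = 0.0428) and 0.20 in the other set, and POU3F1 and SOX3 had 0.41 and 0.05. Without the 2 libraries farthest in ZIC2, r of ZIC2 and POU3F1 in Lane 2 was 0.34. Without the 2 farthest in POU3F1, that of POU3F1 and SOX3 was 0.46. In the SOX3-low number, ZIC2, SOX3 and POU3F1 were all lowest or near lowest of Lane 2. ZIC2 and ZIC5, although neighbours, had only 0.28 and 0.36, with adjusted p-values of 0.29 and 0.096 by permutation. No relation passed by Spearman's rho, where the lowest adjusted permutation p was 0.099, and ZIC5, SOX11 and OTX2 passed with no partner by either measure.
The GC dependence of each LM-Seq library, taken as the mean deviation of the genes of highest GC minus that of the genes of lowest GC, recurred with the number at r = 0.98 between Lanes 1 and 2 (rho = 0.96, permutation p = 1e-05). ZIC2 correlated with it at 0.15 in Lane 2 and at -0.20 in the other 47 libraries, and SOX3 at 0.24 and -0.05. The correlation farthest from 0 was that of ZIC5 in Lane 2, at r = -0.37 and rho = -0.40, with permutation p-values of 0.0102 and 0.00528 and adjusted p-values of 0.122 and 0.0634, and it was -0.08 in the other 47 libraries. None of the 12 correlations of a factor with this measure had an adjusted p below 0.05 by permutation.
The genes most like each factor over the 24 Lane 3 libraries did not keep that likeness elsewhere. COTL1 was most like ZIC2, with r = 0.89 over 24 Lane 3 libraries and 0.29 over the 24 Lane 2 libraries with other numbers. WASL was most like ZIC5 at 0.80 and 0.35, DCP2 most like POU3F1 at 0.80 and -0.41, FAM96A most like OTX2 at 0.69 and -0.43, SLC44A1 most like SOX3 at 0.82 and -0.21, and HSPA14 most like SOX11 at 0.72 and 0.01. These are the highest of 9152 genes in each case, chosen for their value in Lane 3, and are given as a description.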

How the data were processed

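RNA of the H1 line was measured in 179 libraries. The submitters' processing notes list CASAVA 1.8.2, Bowtie 0.12.8, RSEM 1.2.3 and the build hg19. The authors deposited a table of expected counts, which RSEM estimates for each gene, and a table of TPM, which scale counts by transcript length and library total, each of 19084 genes. No source used here states that strand entered the counting, so reads of OTX2, PAX6, SOX21 and SOX1 and of transcripts antisense to or overlapping them cannot be told apart.

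The expected counts were rounded, filtered with filterByExpr and scaled by TMM. They were tested over all genes by the quasi-likelihood F test (edgeR 4.0.16, R 4.3.3), without covariates. A gene counted as called below a Benjamini-Hochberg adjusted p of 0.05. The standard error of a log2 fold change was derived from its F statistic. The procedure was tested on simulated counts. Groups follow the titles, and lanes were compared over the library numbers they share. Correlations were taken on log2 CPM (prior count 2), with 100000 resamples.

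The alternative settings were DESeq2 1.42.0, scaling by RLE, no filter, limma 3.58.1 on log2(TPM + 1) or log2(TPM + 0.1), thinned counts, the replicate number as a block, other TruSeq groups or lanes, and omission of each replicate. LM-Seq libraries of equal number departed from their lane means in the same way, with correlations of 0.14 to 0.69 between Lanes 2 and 1, 0.24 to 0.61 between Lanes 3 and 1, and 0.38 to 0.47 between Lanes 4 and 1, all over 0.1, so the numbers pair these libraries. Transcript GC content came from GENCODE release 29, matched by RefSeq accession.

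The members and the gene lists were chosen with earlier results of these data known. The text names all 9 members, up to 4 called genes per list and comparison with at least 1 TPM in the higher group, by lowest adjusted p, together with POU5F1, NANOG and SOX2, and the genes most like each member. LUM, DCN, COL3A1, TFAP2B, COL1A1 and SNAI2 are named to account for their lists. 1 listed gene is not reported here.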

Additional observations from a re-analysis of the deposited data

Results flagged for a closer look

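POU3F1 in Lane 4 held 1 library far from the others: it had 11.36 TPM, while the other 5 libraries ran from 7.19 to 8.65 TPM. Its gap to the nearest library was 0.65 of the whole range of the 6 libraries, above the Dixon limit for a group of that size. Chance flags about 1 in 20 groups tested this way, and every factor was tested in Lane 4. Without this library the log2 fold change of POU3F1 in Lane 4 against TruSeq was -1.42, with an adjusted p of 0.000113 by edgeR.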

How the results depend on the processing

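The number of factors called kept its side in every alternative that could be fitted: 6 to 8 in H1p43 against H1p16 and 4 to 6 in Lane 4 against TruSeq, 6 to 8 and 4 to 5 when single replicates were left out, and 0 in each lane against Lane 1. In H1p43 against H1p16, 9 single-factor values lost their call, 8 of PAX6 and 1 of SOX21, and the others kept it; PAX6 had an adjusted p of 0.151 by DESeq2, 0.0534 with no filter, 0.116 on thinned counts and 0.0780 to 0.180 without 1 of 4 libraries. The TruSeq replicate numbers do not pair the libraries (correlations of deviations 0.02 to 0.05); with the replicate block 7 factors were called and PAX6 had an adjusted p of 0.0538 by edgeR. The block called 0 factors between lanes. In Lane 4 against TruSeq, the uncalled log2 fold changes changed sign: ZIC2 was -0.12 against H1p43 alone, -0.076 with Lane 3 and -0.038 with Lane 1 in place of Lane 4, ZIC5 was -0.016, -0.015 and -0.019 in these, and SOX21 was 0.0070 against H1p43 alone; ZIC2 and ZIC5 became called against H1p16 alone. Between lanes all signs that changed were of uncalled values. In Lane 2 these were SOX11 at 0.0049 without a filter, SOX3 at 0.014, 0.018 and 0.014 in the limma fits on TPM and at 0.044 over all libraries, ZIC2 at 0.011 and ZIC5 at -0.0035 over all libraries. In Lane 3 they were ZIC2 at 0.0039 and ZIC5 at 0.011 without a filter, SOX3 at 0.0036, 0.011 and 0.0036 and ZIC5 at 0.015, 0.016 and 0.015 in the limma fits, and POU3F1 at 0.0078 and ZIC5 at 0.0029 on thinned counts. In Lane 4 they were OTX2 at 0.021, 0.025 and 0.021 and POU3F1 at 0.0043 in the limma fits, POU3F1 at 0.25 and SOX3 at 0.0042 on thinned counts, and POU3F1 at 0.0023 and OTX2 at 0.041 over all libraries. The cause was not tested. PAX6, SOX21 and SOX1 give no value where a filter removes them. With at least 5 counts in place of 1, SOX1 was seen in 0, 0, 1 and 1 libraries of Lanes 1 to 4, PAX6 in 0, 2, 2 and 1 and SOX21 in 3, 5, 8 and 6. The correlations without the pair of numbers that stand apart were chosen after seeing the data. At the depth of Lane 1, about 1 count or less per library limits SOX21, PAX6 and SOX1.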
